A study of Mus musculus with 56 samples.

Results

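The chaperone genes of the cytosol and mitochondria were examined in the blood of mice carrying 90Sr, a beta emitter that settles in bone. Members were chosen by name alone: genes whose name on the array begins with Hsp or Dnaj followed by a letter or digit, or with Cct followed by a digit. Left out were Hspg2, a matrix proteoglycan, and the chaperones of the endoplasmic reticulum (ER) Hspa5, Hsp90b1, Dnajb9, Dnajb11 and Dnajc3. The rule found 77 of the 30199 gene names on the array: 9 CCT genes, 2 Hsp90 genes, 12 genes of the Hsp70 and Hsp110 family, the Hsp60 and Hsp10 pair, 8 small heat shock protein genes, 42 J protein genes (4 Dnaja, 11 Dnajb and 27 Dnajc) and 2 genes named for binding to heat shock proteins. Because the rule reads names, it also holds genes whose proteins work at or in the ER, among them Dnajc1, Dnajc10, Dnajc14, Hspa13, Dnajb12 and Dnajb14.

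Chaperones bind unfolded protein chains and keep them from clumping until they fold. Hsp70 proteins hold short stretches of a chain and are switched by J proteins, Hsp90 finishes kinases and hormone receptors, and the barrel-shaped chaperonins (CCT in the cytosol, Hsp60 with its lid Hsp10 in mitochondria) enclose a chain while it folds. Heat, oxidants and other damage to proteins release the factor HSF1, which switches on the inducible members, while most of the others are made at all times and most strongly in growing cells.

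The mice were C57BL/6, 10 to 12 weeks old on receipt, and each gave 1 sample of whole blood, taken by cardiac puncture. Treated mice had received 200 kBq of 90Sr as the chloride, with a trace of a gamma-emitting strontium isotope for whole body counting, in 1 injection into the tail vein. Control mice had received the saline vehicle. There were 4 control and 4 90Sr mice at day 4 and 6 of each at days 7, 9, 25 and 30, 56 mice and 56 arrays in all, so that later days also mean a longer stay of the nuclide in the body. The RNA came from all blood cells together with globin transcripts reduced, and in such bulk samples fewer cells of a type and less RNA per cell cannot be told apart.

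Levels below are log2 values of the background-corrected signal less the median of the array, so that 0 is the median spot of the array and 1 unit is a factor of 2. They can be compared between mice for 1 probe, not between probes. Each gene was read from its brightest probe. A probe was tested if it was marked as non-uniform or not above background on fewer than 25% of the arrays, which held for 63 of the 77 members and 18766 of all gene names. The 14 members that did not pass were Dnajb7, Dnajb13, Dnajc5b, Dnajc5g, Dnajc6, Dnajc16, Dnajc22, Dnajc25, Dnajc27, Hspa12a, Hspb2, Hspb3, Hspb7 and Hspb8. A gene was called when limma gave an unadjusted p under 0.001 with at least a 2-fold change, and fell or rose is used below for changes with a Benjamini-Hochberg adjusted p under 0.05 over all genes tested.

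On the 90Sr arrays 14389 to 22524 spots were well above background, and on the control arrays 17809 to 24698. Probes at background moved up under this scaling: of the 7817 probes that were never well above background, 94.8%, 97.2%, 99.2%, 99% and 96.7% were higher in the 90Sr mice in order of day, by a median of 0.51, 0.37, 0.80, 0.81 and 1.08. The 14 untested members did the same, with medians of 0.52, 0.37, 0.79, 0.83 and 0.54. A higher value of a dim member is therefore given below together with the number of arrays on which it was well above background. Scaling to the 75th percentile in place of the median added 0.48, 0.35, 0.39, 0.48 and 0.19 to the median change of all genes at the 5 days.

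With the array median as zero, more chaperone genes were called lower than higher at each day, a balance that depended on the scaling. At day 4, 15 of the 63 were called, 1 higher and 14 lower, which is 23.8% against 19.4% of all genes. At day 7 it was 16 (2 higher, 14 lower), 25.4% against 14.6%, and at day 9 again 16 (6 higher, 10 lower), 25.4% against 18.1%. At day 25 the count was 18 (3 higher, 15 lower), 28.6% against 25.4%, and at day 30 it was 23 (8 higher, 15 lower), 36.5% against 31.6%. Called higher were 2.09%, 2.59%, 4.41%, 5.63% and 15.5% of all genes, and called lower 17.3%, 12%, 13.7%, 19.8% and 16.1%. By adjusted p alone, 9, 11, 13, 10 and 23 of the 63 rose, against 20.2%, 24%, 15.2%, 25.7% and 34.3% of all genes, and 28, 28, 21, 27 and 28 fell, against 33.6%, 33.6%, 27.3%, 38.3% and 29.7%. At 1 or more days 33 members were called, 52.4% against 48.2% of all genes. The shares called lay closest to those of all genes at days 4, 25 and 30. The median change of the 63 was -0.22, -0.25, -0.32, -0.18 and -0.05 in order of day, beside -0.01, -0.00, -0.08, -0.10 and 0.12 over all genes. At 75th percentile scaling 4, 5, 12, 9 and 12 members were called higher and 5, 3, 2, 4 and 10 lower, so that higher calls led at days 7, 9, 25 and 30. The member medians were then 0.26, 0.094, 0.074, 0.30 and 0.13, beside 0.47, 0.35, 0.31, 0.38 and 0.31 over all genes. Calls over all genes were not counted at this scaling, so the turn in the calls has no background to be set against. The difference between 2 members on an array is the same with either scaling.

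**Figure D1:**
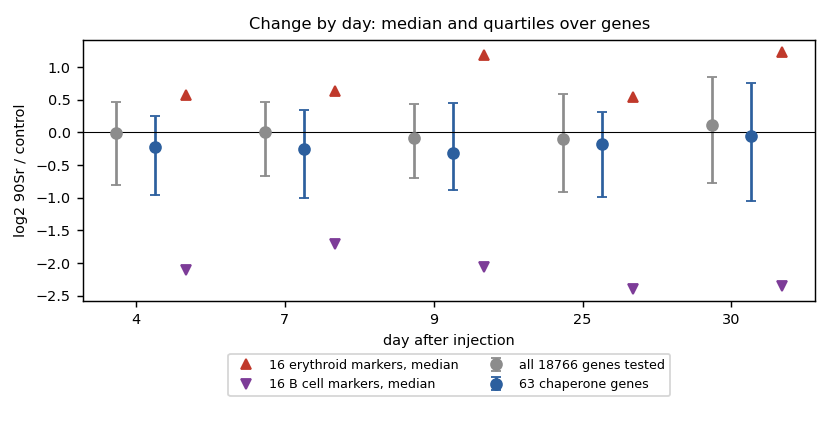
Median (points) and quartiles (bars) over genes of the change from control to 90Sr mice, on the log2 scale, at each of the 5 days, for all 18766 genes tested and for the 63 chaperone genes, with the medians of 16 erythroid and 16 B cell markers. The chaperone median lay below that of all genes at each day, between -0.05 and -0.32, and far from the B cell markers (-1.71 to -2.39).

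Most members kept 1 sign over the 5 days, as most genes did. Of the 63, 30 were below 0 at all 5 days (47.6%, against 35.5% of all genes) and 17 above 0 at all 5 (27.0%, against 26.8%), and no member was called lower at 1 day and higher at another. Direction was then read under 5 scalings (array median, 75th percentile, quantile, median of detected probes, and a normexp background correction in which spots with too high a local background were reset, a setting chosen after the data had been seen), 25 readings per member. In all 25 readings 25 members were lower: Cct2, Cct3, Cct4, Cct5, Cct6a, Dnaja3, Dnajb5, Dnajc1, Dnajc2, Dnajc4, Dnajc5, Dnajc7, Dnajc9, Dnajc10, Dnajc13, Dnajc15, Dnajc24, Dnajc30, Hspa4, Hspa9, Hspa14, Hspb11, Hspbp1, Hspd1 and Hspe1. Higher in all 25 were 3, namely Dnajb2 and the dim Dnajb3 and Hspa1l (well above background on 4 and 18 of 56 arrays), and the other 35 changed sign with the day or the scaling. With plain normexp correction, without the reset, 19 of the 25 were lower at all 5 days. The other 6 were above 0 at a late day, Cct3 (0.14) and Hspb11 (0.0023) at day 30, Dnajc15 (0.029), Hspd1 (0.10) and Hspe1 (0.23) at day 25, and Dnajc5 at both (0.46 and 0.26), and Dnajb2 was at -0.93 at day 4. The 19 include Cct2, Cct4, Cct5 and Cct6a of CCT and Hspa9, the mitochondrial Hsp70. These readings were not made for all genes, and they rest on the brightest probe alone. Of 18 members with more than 1 passing probe, 6 had the same sign on all of them at all 5 days. Among the 25 lower members, Dnajb5, Dnajc5, Dnajc10 and Hspa4 had other passing probes above 0 at some or all days. The second probe of Dnajc10 lay between -0.61 and 0.40.

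**Figure D2:**
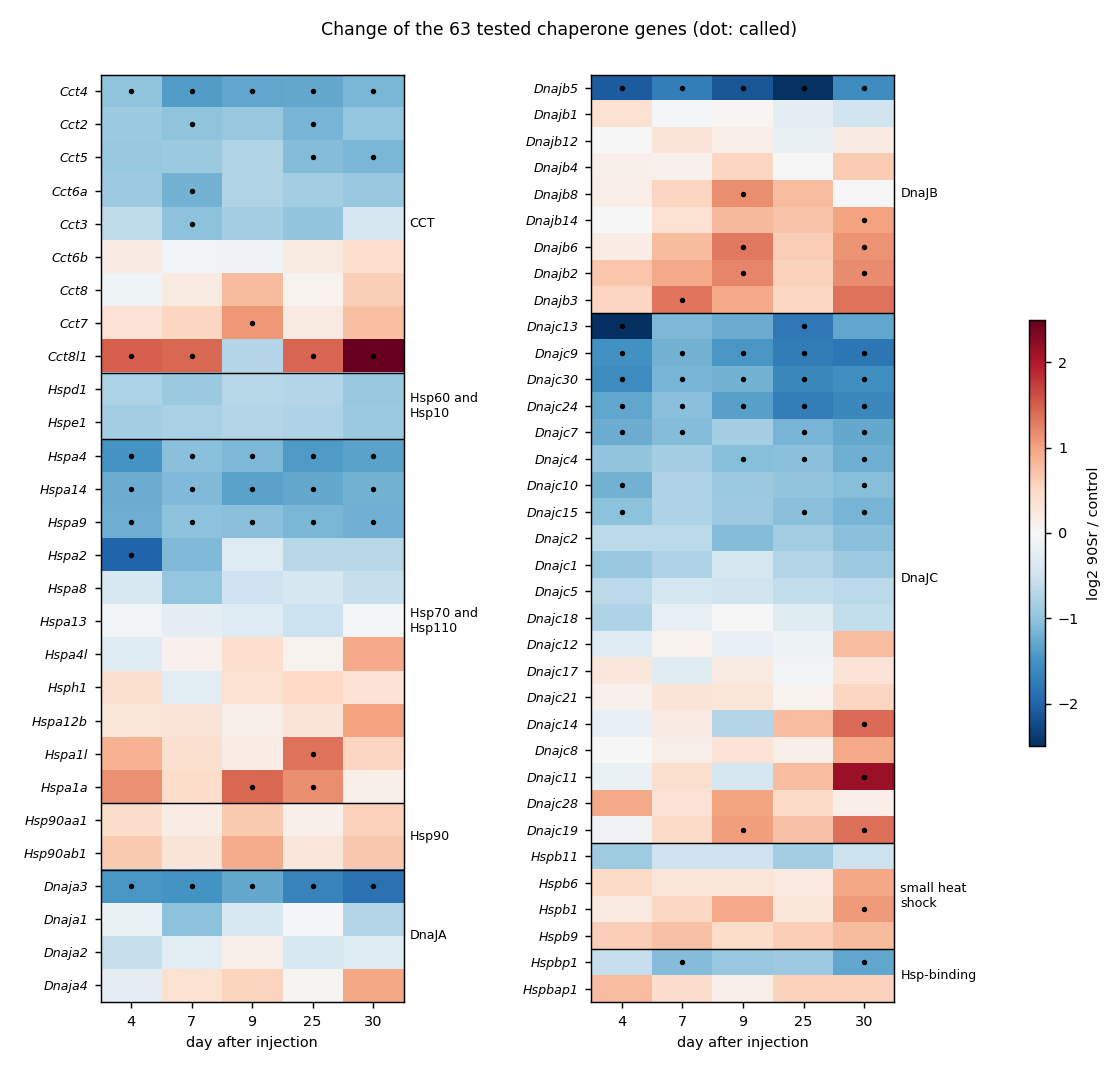
Log2 change from control to 90Sr mice of the 63 tested chaperone genes on each of the 5 days, grouped by family, with blue lower and red higher in 90Sr mice and a dot where a gene was called (color is capped, and Cct8l1 at day 30 lies past the scale). Within the CCT genes, Cct2, Cct3, Cct4, Cct5 and Cct6a were blue throughout while Cct7 was red at each day, and Dnajb2 and Dnajb6 stood out as red among the J proteins.

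CCT is a double ring of different subunits, each made from its own gene, that folds actin and tubulin. Its subunits did not move together. Cct4 fell at all 5 days. At day 4 its levels were 4.28, 4.23, 4.38 and 4.04 in the control mice and 3.38, 2.82, 3.53 and 3.15 in the 90Sr mice, and the groups did not overlap. From its lowest over its median to its highest mouse it was 4.11, 4.48 and 4.87 in controls against 2.55, 3.04 and 3.66 in 90Sr mice at day 7, and 2.96, 3.55 and 4.25 against 1.77, 2.53 and 2.82 at day 30. Every 90Sr mouse lay below every control mouse at each of the 5 days. The changes were -1.01 ± 0.17, -1.39 ± 0.19, -1.29 ± 0.26, -1.28 ± 0.23 and -1.15 ± 0.24 (SE, n = 4 per group at day 4 and 6 later), with adjusted p between 0.00014 and 0.0012 from limma.

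Cct2 and Cct5 also fell at all 5 days, by 0.93 to 1.15 and by 0.76 to 1.15 on the log2 scale. Cct3 fell at 4 days and was at -0.42 at day 30 (adjusted p = 0.18 from limma). Cct6a fell at 4 days and was at -0.76 at day 9 (adjusted p = 0.13 from limma). The subunit gene that carries the old name Tcp1, and so is no member, fell as well, with changes between -0.93 and -1.28 (largest adjusted p 0.0059 from limma).

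Cct7 and Cct8 went the other way. At day 4 Cct7 was 6.86, 6.91, 6.96 and 7.24 in control mice and 7.37, 7.57, 7.20 and 7.28 in 90Sr mice, where the groups overlapped (adjusted p = 0.052 from limma). At day 9 the lowest, median and highest were 6.24, 6.56 and 6.75 in controls and 6.82, 7.79 and 7.86 in 90Sr mice, without overlap. Cct7 rose at days 7, 9 and 30, by 0.53 ± 0.10, 1.08 ± 0.20 and 0.74 ± 0.15 (SE), and stood at 0.22 ± 0.15 at day 25, where 4 of 6 mice were above all controls. Cct8 rose at days 9 and 30, by 0.79 ± 0.19 and 0.60 ± 0.16, and lay between -0.11 and 0.23 at the other 3 days. At 75th percentile, quantile and detected-median scaling both were above 0 at all 5 days. With normexp correction, and spots of too high a local background reset, Cct7 ranged from -0.27 to 0.33 and Cct8 from -0.60 to 0.08. Without the reset they ranged from -1.20 to 1.57 and from -1.37 to 1.19. The direction of both against the whole array thus depends on the background correction.

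The change of both genes differed between days (adjusted p = 0.0033 for Cct7 and 0.0021 for Cct8, limma's F test over 10 groups). Part of that lay in the control mice, whose Cct7 median was 7.30 at day 7 and 6.56 at day 9 while the 90Sr median was 7.82 and 7.79. Control mice of the 5 days differed for 36 of the 63 members, or 57.1%, against 55.9% of all genes. Every slide held mice of 1 day, so that slide and day cannot be told apart in full. With slide as a random block 18 members differed between control days, a count that was not made over all genes.

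The split inside CCT can be read on each array, where a scaling constant cancels. The difference Cct7 minus Cct4 within a mouse, a pair picked after the values had been seen and given without a test, was 2.76 ± 0.30 in controls and 4.13 ± 0.45 in 90Sr mice at day 4 (SD, n = 4), and 2.52 ± 0.25 and 4.89 ± 0.73 at day 9 (SD, n = 6). It was wider in every 90Sr mouse than in any control mouse at days 4, 7, 9 and 30, and in 5 of 6 at day 25. The size of the difference itself means nothing, since it sets 2 probes side by side, and only its shift of 1.37 to 2.37 between groups does. Cct8 minus Cct2, also picked after the values had been seen and given without a test, shifted by 0.82 to 1.75. At day 4, 3 of 4 90Sr mice lay above all controls, and at each later day all 6 did.

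**Figure D3:**
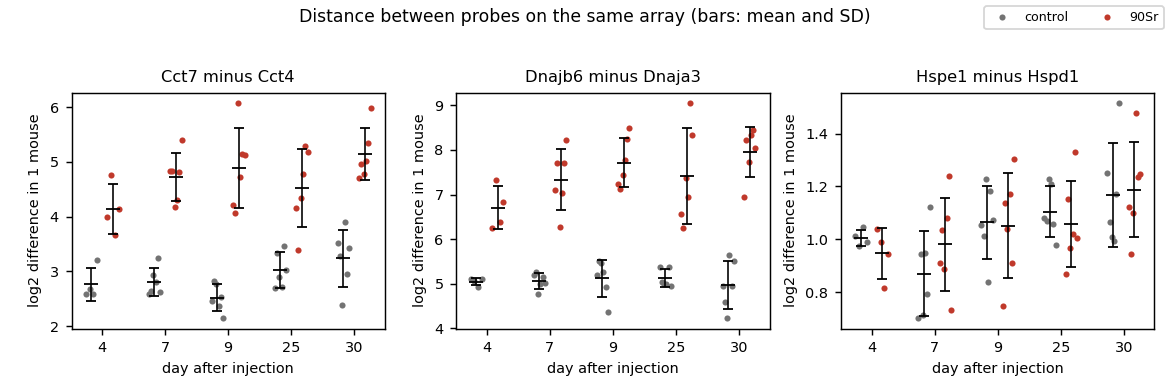
Difference on the log2 scale between 2 probes on the array of each mouse, on each of the 5 days, for control (grey) and 90Sr (red) mice, with mean and SD as bars. Cct7 minus Cct4 and Dnajb6 minus Dnaja3 were wider after 90Sr at each day, and Hspe1 minus Hspd1 stayed near 1 in both groups. The pairs shown were picked after the values had been seen and were not tested.

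The remaining CCT names were dim. Cct6b, a relative of Cct6a known from testis, was well above background on 10 arrays and lay between -0.08 and 0.42 with no adjusted p under 0.05. In the day 30 controls 1 mouse (replicate 4) stood at 2.97 and the other 5 between -1.20 and -0.93, and without that mouse the day 30 change was 1.095 ± 0.21 (SE) and a call. Cct8l1 had the largest rise among the members, 3.21 ± 0.64 at day 30, was called higher at 4 days, and stood at -0.74 at day 9. Both values rest on sets of mice that shared a slide. At day 9 the 4 control mice on a slide of their own stood at 2.40 to 2.69, while the other 2, on a slide with 90Sr mice, were at -0.27 and -0.10. At day 30 the 4 90Sr mice on a slide of their own stood at 3.30 to 4.28, and those 2 that shared a slide with controls were at 0.20 and 0.86. With slide as a fixed block the changes were 1.04 ± 0.33 at day 9 and 0.94 ± 0.63 at day 30 (SE), neither a call. It was well above background on 13 of 28 control and 21 of 28 90Sr arrays, and in none of the day 4 controls, so that the day 4 rise is given as at least 2.56-fold (adjusted p = 0.00035 from limma). The groups of day 4 lay on separate slides, so that a rise after 90Sr and a difference between slides cannot be told apart there. At day 25 only 1 control and 2 90Sr arrays measured Cct8l1. Its change differed between days (adjusted p = 0.00069, limma's F test), as did its level among the control mice of different days (adjusted p = 0.00016).

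Hspd1 and Hspe1 encode Hsp60 and its lid Hsp10, and they lie head to head on chromosome 1. The 215 bases between their start sites are shown because both genes fell side by side, and heat shock elements sit in that shared stretch. HSF1 binds repeats of GAA in alternating direction, and the stretch was searched on both strands for 2 units (GAANNTTC or TTCNNGAA) and for 3 (the first followed by NNGAA, or the second by NNTTC), of which the 3-unit matches contain 2-unit matches. The bases between the starts of Hspd1, which runs to the left, and Hspe1, which runs to the right (RefSeq, GRCm38.p6, chr1:55087933-55088147, plus strand), carry the units in capitals.
Hspd1-Hspe1: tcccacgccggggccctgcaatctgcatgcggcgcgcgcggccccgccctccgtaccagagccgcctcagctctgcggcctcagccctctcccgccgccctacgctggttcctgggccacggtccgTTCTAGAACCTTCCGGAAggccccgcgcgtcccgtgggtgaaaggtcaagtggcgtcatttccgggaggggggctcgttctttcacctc
The 18-base run in capitals holds 3 matches of 2 units and 2 matches of 3 units. For 62 of the 77 members a window of 300 bases around a start site (250 before, 50 after) was at hand. Of these, 19 (30.6%) held 2 units, against 15.1% of all 32851 windows and 17% of genes. A match of 3 units lay in 4 of the 62, namely Hspd1 and Hspe1, which share 1 stretch, Dnajb6 and Hsph1. Over all, 0.603% of windows and 0.662% of genes hold 3 units. Such a match is a run of letters and says nothing of binding in these mice.

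Hspd1 fell at all 5 days. At day 4 it was 4.44, 4.39, 4.66 and 4.41 in control mice and 3.99, 3.195, 3.70 and 3.88 in 90Sr mice, without overlap. Its lowest, median and highest levels at day 9 were 3.93, 4.28 and 4.58 in controls against 3.29, 3.57 and 3.86 after 90Sr. The change was -0.79 ± 0.18, -0.93 ± 0.18, -0.71 ± 0.17, -0.73 ± 0.23 and -0.95 ± 0.22 (SE), less than 2-fold at each day, so that no day was a call. Hspe1 changed by -0.85 ± 0.19, -0.81 ± 0.19, -0.72 ± 0.19, -0.78 ± 0.21 and -0.93 ± 0.21, and its other 2 probes were also lower at all 5 days. Largest adjusted p over the 5 days was 0.013 for Hspd1 and 0.0061 for Hspe1 (limma). Within a mouse, Hspe1 minus Hspd1 shifted by no more than 0.11 between the groups at any day. This pair too was picked after the values had been seen.

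Hspa9 is mortalin, the Hsp70 of the mitochondrial matrix that pulls proteins through the inner membrane, and Dnaja3 is a J protein that works with it. Hspa9 was 3.92, 3.80, 4.24 and 3.79 in the day 4 controls and 2.88, 2.57, 2.98 and 2.42 in the day 4 90Sr mice. It was called lower at all 5 days, with changes of -1.22 ± 0.17, -1.03 ± 0.15, -1.05 ± 0.21, -1.14 ± 0.21 and -1.20 ± 0.21 (SE), and no 90Sr mouse reached the range of its controls. Dnaja3 fell further, by 1.28 to 1.86 on the log2 scale, or 3.62-fold at day 30 (adjusted p = 5.9e-05 from limma), where controls spanned 2.41 to 3.51 and 90Sr mice 0.90 to 1.85.

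Other mitochondrial J proteins gave both signs. Dnajc30, a small protein tied to the ATP synthase, was called lower at all 5 days (-1.17 to -1.61). Dnajc15, a partner of the import motor, fell at all 5 days by 0.78 to 1.16 and Dnajc4 by 0.85 to 1.22. Dnajc19, another partner of that motor, moved the other way, with -0.10 ± 0.13 at day 4 and rises of 0.47 ± 0.14, 1.04 ± 0.21, 0.74 ± 0.20 and 1.37 ± 0.24 later. That rise came from 1 of its 2 probes (transcript NM_001026211), since the other (NM_026332) lay between -0.54 and 0.18. Among 14 mitochondrial chaperones and proteases that do not carry these names, 6, 10, 6, 12 and 6 fell in order of day and 1 rose at each day, with medians of -0.41, -0.54, -0.51, -0.88 and -0.27. The matrix protease gene Lonp1 was called lower at all 5 days (-1.17 to -1.84), and Clpx and Timm44 at 3.

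**Figure D4:**
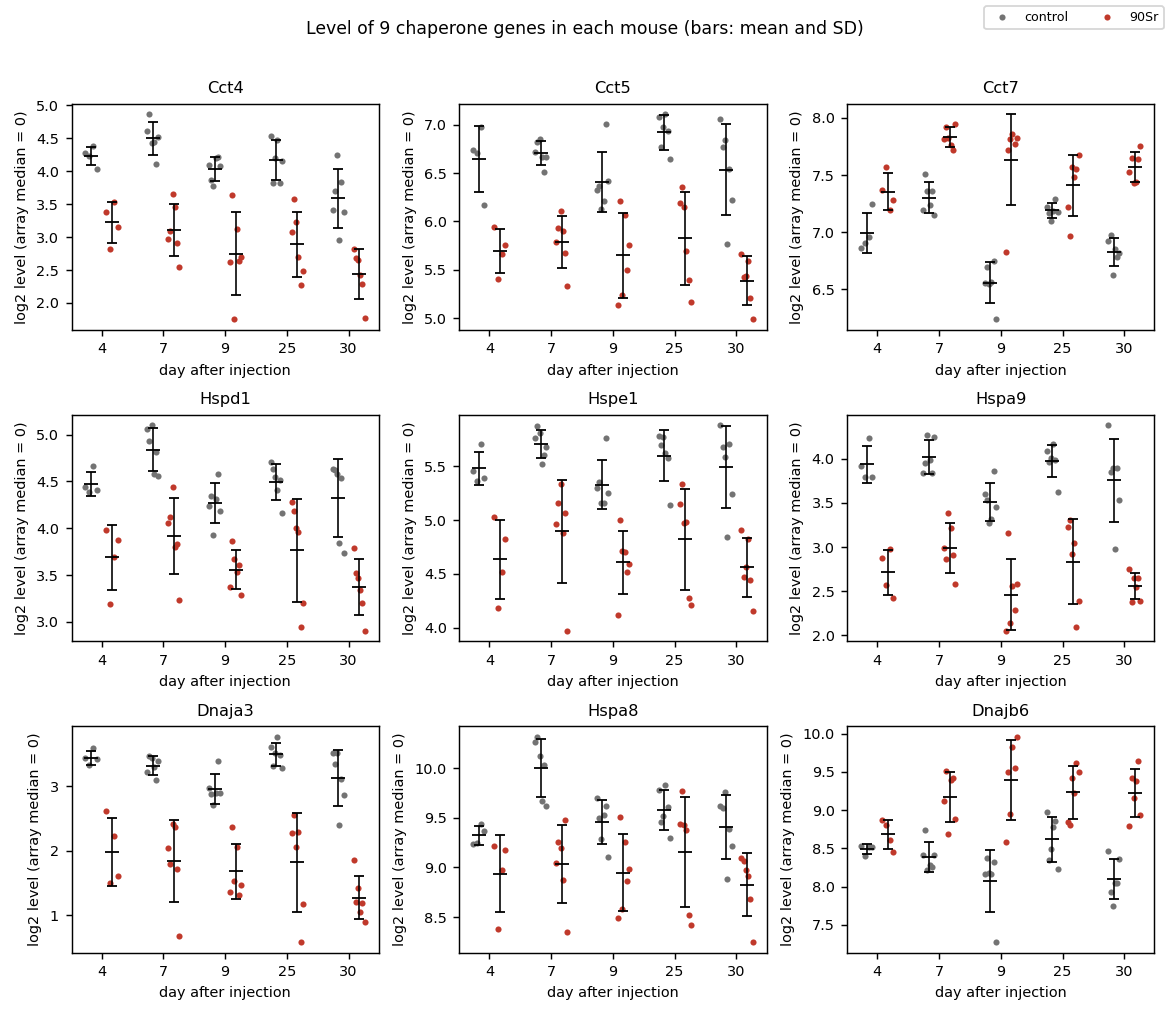
Level of 9 chaperone genes in each mouse, on the log2 scale with the array median at 0, for control (grey) and 90Sr (red) mice on each of the 5 days, with mean and SD as bars. Cct4, Cct5, Hspd1, Hspe1, Hspa9 and Dnaja3 had lower means after 90Sr at each day, Cct7 and Dnajb6 had higher ones, and the range of Hspa8 overlapped that of the controls at days 9, 25 and 30.

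Hspa8 is Hsc70, the Hsp70 that cells make without stress, and was among the brightest members. At day 4 it was 9.24, 9.25, 9.44 and 9.37 in controls and 9.21, 8.38, 8.98 and 9.18 in 90Sr mice. Hspa8 fell at days 7 and 30, by 0.97 ± 0.19 and 0.58 ± 0.20 (SE), and its changes of -0.39, -0.51 and -0.42 at days 4, 9 and 25 did not reach an adjusted p of 0.05. Its 3 probes had the same sign at 4 of 5 days.

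Hspa4, an Hsp110 that releases the nucleotide from Hsp70, was called lower at all 5 days on its brightest probe (-1.04 to -1.47). Another probe of Hspa4 lay between 0.08 and 1.04 and the dimmest between -1.93 and 0.64, all 3 naming the same transcript, so the gene as a whole has no settled direction here. Hspa14, a ribosome-bound Hsp70, was called lower at all 5 days as well (-1.10 to -1.34, 1 probe). Hspa2, known from germ cells, fell by 2.01 ± 0.21 at day 4, where no 90Sr array was well above background, which bounds the drop at 1.35-fold or more (adjusted p = 0.00017 from limma). Hsph1 rose at days 4 and 25, by 0.40 and 0.49, and was at -0.28 at day 7 (adjusted p = 0.16 from limma), with the same signs on its second probe. Hspa4l fell by 0.33 at day 4 and rose by 0.95 at day 30 (adjusted p for a difference between days 0.0012, limma's F test). Its sign at day 4 depended on the scaling, with 0.15 at the 75th percentile, 0.035 with quantile normalization and 0.11 at the median of detected probes.

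Hspa1a is the stress-inducible Hsp70, and its near-identical copy Hspa1b has no probe by that name, so that the probe may read both. Hspa1a was well above background on 0 of 28 control and 2 of 28 90Sr arrays. Its calls at days 9 and 25 (1.44 and 1.16) are those of a probe at background, where rises of 0.80 and 0.81 were the median, and neither group measured it at day 25. Hspa1l, its testis-known neighbor, was called higher at day 25 (1.35) although no array of either group was well above background at that day. Both Hsp90 genes of the cytosol, bright on every array, rose at some days. Hsp90ab1 rose at days 4, 7, 9 and 30 by 0.65 ± 0.14, 0.32 ± 0.10, 0.92 ± 0.21 and 0.68 ± 0.18, and Hsp90aa1, the inducible form, at days 4, 9 and 30 by 0.43, 0.65 and 0.58. With normexp correction and the reset these became -0.23 to 0.17 for Hsp90ab1 and -0.38 to 0.07 for Hsp90aa1, and without the reset -0.996 to 1.57 and -1.11 to 1.36. Set against Hspa8 on the same array, Hsp90ab1 shifted up by 0.72 to 1.43, and all 90Sr mice lay above all controls except 2 of 6 at day 25 (pair picked after the values were seen, no test).

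Among the J proteins, Dnajb6 and Dnajb2 rose and Dnaja3, Dnajb5, Dnajc7, Dnajc9, Dnajc24 and Dnajc30 fell. Dnajb6 keeps aggregation-prone proteins soluble. Its 250 bases before the start site (RefSeq, GRCm38.p6, chr5:29735648-29735897, plus strand) are shown beside the Hspd1-Hspe1 stretch because they too hold a 3-unit match, again in capitals.
Dnajb6: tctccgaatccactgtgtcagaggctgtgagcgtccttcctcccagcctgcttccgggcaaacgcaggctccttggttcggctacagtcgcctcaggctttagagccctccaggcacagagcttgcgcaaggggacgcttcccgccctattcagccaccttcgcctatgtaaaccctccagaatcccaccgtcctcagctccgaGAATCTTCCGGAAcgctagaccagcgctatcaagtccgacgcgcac
Of the 4 members with such a match, with the array median as zero, Hspd1 and Hspe1 were lower at all 5 days. Dnajb6 was higher at all 5, and Hsph1 had both signs. Any part of the match in these changes was not tested. At day 4 Dnajb6 was 8.53, 8.40, 8.52 and 8.52 in controls and 8.87, 8.81, 8.61 and 8.46 in 90Sr mice, and at day 9 its lowest, median and highest levels were 7.27, 8.17 and 8.38 against 8.58, 9.52 and 9.96. It rose at days 7, 9, 25 and 30 by 0.78 ± 0.16, 1.32 ± 0.26, 0.62 ± 0.19 and 1.12 ± 0.19 (SE), and all 4 of its probes were higher at all 5 days. Dnajb2, a J protein known from neurons, rose at all 5 days by 0.58 to 1.22, was called at days 9 and 30, and agreed on both probes. With normexp correction Dnajb6 ranged from -0.29 to 0.56 with the reset and from -1.38 to 1.94 without it, and no member was called higher at any day with either.

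Dnajb5, an Hsp40 of the cytosol, was called lower at all 5 days (-1.58 to -2.46). It was 1.68, 1.59, 2.06 and 1.74 in the day 4 controls and 0.11, 0.14, -0.69 and -0.84 after 90Sr, and its probe was well above background on 27 of 28 control and 3 of 28 90Sr arrays. Its drop was at least 3.32-fold, 1.58-fold and 2.12-fold at days 4, 9 and 25, where no 90Sr array measured it (adjusted p between 4.3e-05 and 0.00025 from limma). A second, dimmer probe for another Dnajb5 transcript (ENSMUST00000084662) did not follow, at -0.65 to 0.50. Dnajc13, which acts on endosomes, was likewise measured in the day 4 controls and not after 90Sr, a drop of at least 3.30-fold (adjusted p = 0.00015 from limma). Dnajc9, a chaperone of histones, was bright on every array and was called lower at all 5 days, by 1.51 ± 0.20, 1.19 ± 0.18, 1.46 ± 0.20, 1.74 ± 0.26 and 1.80 ± 0.23 on the log2 scale. Dnajc24, needed for diphthamide synthesis, was called lower at all 5 days on its brighter probe (-1.04 to -1.72) and was lower on both.

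The remaining J proteins named here gave both signs. Dnajc7, which links Hsp70 to Hsp90, fell at all 5 days by 0.85 to 1.28 and was called lower at 4. Dnajc5, the cysteine string protein of secretory vesicles, fell at 4 days on its brightest probe, with changes between -0.45 and -0.67, whereas its other 2 tested probes lay between -0.38 and 0.62. Dnaja1 fell at days 7 and 30 (-1.03 and -0.73), Dnaja2 at days 4 and 25 (-0.58 and -0.38), and the inducible Dnajb1 rose by 0.39 at day 4 and fell by 0.51 at day 30. Dnajc14, an ER-bound J protein, had the smallest p of the members for a difference between days (adjusted p = 0.00021, limma's F test), at -0.73 at day 9 and 1.42 at day 30. In all, the change differed between days for 15 of 63 members, 23.8% against 22.7% of all genes. With slide as a random block it differed for 6, without a count over all genes.

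Small heat shock proteins hold unfolded chains without ATP. Of 4 tested, Hspb1 (Hsp27) rose at days 9 and 30, by 0.95 and 1.07, and was called at day 30. Hspb6 and Hspb9 rose at 3 and 4 days by 0.31 to 0.96 and 0.61 to 0.78, and Hspb11, which by function belongs to cilia transport, fell at 4 days, with changes between -0.51 and -0.90. With normexp correction and the reset, Hspb1, Hspb6 and Hspb9 ranged from -0.08 to 0.33, from -0.12 to 0.26 and from -0.17 to 0.19. Hspb8, the partner of Bag3, was never well above background. Of the 2 binding proteins Hspbp1, which frees nucleotide from Hsp70, fell at all 5 days by 0.58 to 1.31.

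Of 40 members (of the 63) that were well above background on all 56 arrays, 8, 8, 6, 10 and 10 were called lower at the 5 days, and 0, 0, 4, 0 and 6 higher. Among the members, the higher calls at days 4, 7 and 25 were thus all of dimmer probes. The same counts over all genes of that brightness were not made, so these numbers have no background to be set against. Of the 63, 9 were called lower at all 5 days (Cct4, Dnaja3, Dnajb5, Dnajc9, Dnajc24, Dnajc30, Hspa4, Hspa9 and Hspa14), 14.3% against 6.28% of all genes, and 0 higher at all 5 days, against 0.032%. Of these 45 calls, 12 were lost when some single array was left out and 26 at 75th percentile scaling, where only Dnajb5 was still called at all 5 days. With slide as a fixed block, which rests on the slides with 2 control and 2 90Sr mice, 14, 4, 0 and 0 members were called at days 7, 9, 25 and 30. Calls over all genes were not counted in that fit, so the loss cannot be read as one of the chaperone genes. At day 4 each group lay on a slide of its own, and slide and group cannot be told apart.

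The partners of these chaperones were listed from general knowledge. Hsf1, the master switch of the inducible members, was lower at each day by 1.16 to 1.77 and called at 4, while of the 7 tested genes in its list 3, 2, 1, 5 and 1 fell and 2, 1, 2, 1 and 1 rose. Of 24 cochaperones of Hsp70 and Hsp90, 13, 16, 10, 12 and 11 fell and 4, 4, 4, 2 and 6 rose, with medians from -0.37 to -0.51. The phosphatase gene Ppp5c was called lower at all 5 days (-1.32 to -2.04), Ttc4 at 4 and Ppid at 3. Bag1, which releases clients from Hsp70, was among those that rose, by 0.64 to 1.32, and was named after its values were seen. Among 11 tested genes of a list of prefoldin and CCT partners, 7, 7, 4, 7 and 5 fell and 0, 0, 0, 0 and 2 rose. This list also holds the CCT subunit gene Tcp1 described above. Pdcl3 was called lower at 4 days (-1.33 to -2.29) and Pfdn4 at 3 (-1.36 to -1.78). All 15 tested ER chaperones, which the rule leaves out, were below 0 at all 5 days with medians of -0.89 to -1.02, and Pdia6 and Manf were called lower at each (-1.42 to -1.81 and -1.13 to -1.29).

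Cell markers moved on the same arrays. Of 16 B cell markers 14, 14, 13, 14 and 14 were called lower and 0 higher, with medians of -2.11, -1.71, -2.06, -2.39 and -2.35, and their mean level ran from 4.70 to 5.77 in control mice and from 2.63 to 4.62 in 90Sr mice. Of 12 monocyte markers 3 to 7 were called lower (medians -0.98 to -1.52). Of 16 erythroid markers 0, 1, 11, 0 and 10 were called higher and 0 lower, with medians of 0.57, 0.63, 1.19, 0.55 and 1.24 and mean levels from 6.25 to 7.36 in controls and 7.09 to 8.21 in 90Sr mice. Of 14 markers of dividing cells 0, 1, 5, 1 and 7 were called higher and 2, 1, 0, 2 and 2 lower. T cell and NK cell markers had medians of -0.43 to -0.67 and -0.17 to -0.77, neutrophil markers -0.09 to -0.84, platelet markers -0.10 to 0.79 and immediate early genes, which handling can switch on, -0.26 to -0.74. Of 13 tested immediate early genes, 5, 5, 6, 5 and 6 fell and 2, 3, 0, 4 and 5 rose in order of day. Among those lower, Egr1 was called at all 5 days (-1.54 to -2.20) and Zfp36 (-1.99 to -2.70) and Nr4a1 (-0.91 to -1.57) at 4. The part of these cell types in the chaperone changes was not tested.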

How the data were processed

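Each sample was blood RNA of 1 mouse on a 1-color Agilent whole genome array of 44397 spots. The deposited scanner files give the signal of each spot as a background-corrected intensity, made by the authors with Agilent Feature Extraction (10.7 in the submitters' processing notes, 11.5.1.1 in the file headers). The authors also deposited a table of log2 values of the same signal less a constant for each array, which served as an alternative. Here log2 intensities were centered on the median of 43020 non-control spots, the brightest probe stood for each gene, and probes marked on 25% or more of the arrays were dropped. Control and 90Sr mice were compared day by day with limma 3.58.1 in R 4.3.3, and the 10 groups together by F tests, with Benjamini-Hochberg adjustment over 18766 genes. Calls needed an unadjusted p under 0.001 and a 2-fold change. Scripts were tested on simulated data.

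Named in the text were the main members by role, the members called at all 5 days, the 3 largest non-overlapping changes of each day in each direction, the 5 smallest p for a difference between days, and the leading genes of each partner list. Members and lists were chosen with earlier results of these data known. Each replicate was a separate mouse, and p-values set the change against the spread between mice. The main fits held no slide term. At day 4 each group lay on a slide of its own, and at later days most mice of a group shared a slide only with their own group. The changes and p-values can therefore also hold differences between slides. Promoters came from RefSeq (GRCm38.p6). Alternatives covered scaling, background correction, filters, threshold, slide, pairing and each array left out. The number of arrays limits the precision.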

Additional observations from a re-analysis of the deposited data

Results flagged for a closer look

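In 37 of 390 groups examined over 39 members, 1 mouse stood apart from the rest of its group, in that its gap to the nearest mouse, divided by the range of the group, was past Dixon's 95% limit. Chance alone gives about 1 such group in 20. Of the 37 groups, 19 were of 90Sr mice and 18 of controls. In 90Sr day 9 replicate 1 the ratio was 0.867 for Cct7, 0.706 for Dnajb2, 0.769 for Dnajc14, 0.626 for Dnajc24, 0.662 for Hsp90aa1 and 0.717 for Hsp90ab1. In control day 9 replicate 5 the ratio was 0.66 for Cct5, 0.766 for Dnaja2, 0.628 for Dnajc13 and 0.669 for Hspe1. In control day 30 replicate 4 the ratio was 0.935 for Cct6b, 0.758 for Dnajc13, 0.664 for Dnajc24 and 0.678 for Dnajc30. Among 90Sr mice of day 30 the ratio was 0.661 for Cct2 (replicate 1), 0.741 for Cct6a (replicate 6), 0.657 for Dnajb5 (replicate 3) and 0.77 for Dnajc15 (replicate 1). Among 90Sr mice of day 7 the ratio was 0.709 for Cct3 (replicate 5), 0.636 for Dnajc14 (replicate 6), 0.671 for Hspa4l (replicate 3) and 0.666 for Hspe1 (replicate 6). Among 90Sr mice of day 9 the ratio was 0.668 for Cct6a (replicate 2). Among control mice of day 25 the ratio was 0.67 for Cct8 (replicate 1), 0.756 for Dnajc19 (replicate 5), 0.628 for Hspa9 (replicate 6) and 0.676 for Hspe1 (replicate 6). Among 90Sr mice of day 4 the ratio was 0.971 for Dnaja2 (replicate 1) and 0.879 for Hsp90ab1 (replicate 2). Among 90Sr mice of day 25 the ratio was 0.719 for Dnaja2 (replicate 6) and 0.674 for Hspa1a (replicate 4). Among control mice of day 7 the ratio was 0.657 for Dnajb2 (replicate 2) and 0.73 for Dnajb5 (replicate 5). Among control mice of day 4 the ratio was 0.913 for Dnajb6 (replicate 2) and 0.874 for Hsp90aa1 (replicate 3). Among control mice of day 9 the ratio was 0.805 for Dnajb6 (replicate 6). Among control mice of day 30 the ratio was 0.706 for Dnajc19 (replicate 1). 

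The change from control to 90Sr mice differed between days for 15 of the 63 members, by limma's F test over 10 groups adjusted over all genes. Among them, with adjusted p from limma, were Dnajc14 (0.00021), Cct8l1 (0.00069), Hspa4l (0.0012), Cct8 (0.0021), Dnajc19 (0.0022), Cct7 (0.0033), Dnajb6 (0.026) and Hsph1 (0.033). The others were Dnajb14 (0.011), Hspb6 (0.012), Dnajc11 (0.018), Dnajc8 (0.020), Dnajb4 (0.026), Dnaja4 (0.037) and Dnajc12 (0.037). Control mice of different days differed as well for 13 of the 15, the exceptions being Dnajb6 (adjusted p = 0.051) and Hspb6 (adjusted p = 0.075, both from limma). Every slide held mice of 1 day, and with slide as a random block 6 members differed, a count that was not made over all genes.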

How the results depend on the processing

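Array scaling changed the balance of calls among the members. Counts over all genes were not made with the other scalings, filters and fits of this section. At 75th percentile scaling 9 and 8 members were called at days 4 and 7 (5 and 3 lower), with medians of 0.26, 0.094, 0.074 and 0.30 at days 4, 7, 9 and 25, and the share lower among called members was 55.6%, 37.5%, 14.3%, 30.8% and 45.5% over the 5 days. Quantile normalization called 8, 7, 9 and 10 at days 4, 7, 9 and 25, of which 75%, 71.4%, 44.4% and 40.0% were lower, with medians of -0.045, -0.015, -0.059 and 0.013, and at day 30 77.3% of calls were lower. The median of detected probes called 8 at day 7, with medians of 0.22, 0.056, 0.051 and 0.24 at days 4, 7, 9 and 25, and 60.0%, 37.5%, 14.3%, 30.8% and 53.8% lower. With normexp correction 0 members were called at any of the 5 days, medians at days 4 and 25 were -0.77 and 0.033, Dnajc15 and Hspa1a turned to 0.029 and -0.018 at day 25, and 2 members differed between days and 5 between control days. On 24 arrays up to 28 spots had a local background more than 100 units above their signal. With those reset, an alternative chosen after seeing the data, 14 were called at day 30, all lower, and medians at days 4 and 25 were -0.52 and -0.40.

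The authors' processed values, a filtered table that holds 45 of the members, gave medians of -0.91, -0.85, -0.83, -0.83 and -1.15, with 5 members that differed between days and 14 between control days. The variation filter, which keeps genes that moved, gave -0.68, -0.78, -0.72, -0.73 and -0.73, with 7 and 20. Without a detection filter the medians were -0.064, 0.085, 0.15, 0.063 and 0.16, and with probes well above background on 75% of arrays they were -0.39, -0.38 and -0.51 at days 4, 25 and 30. Members well above background on all 56 arrays, a choice made after seeing the data, gave 8, 8, 10 and 10 calls at days 4, 7, 9 and 25 and a median of -0.38 at day 30. An adjusted p under 0.05 without a fold limit passed 37, 39, 34, 37 and 51. Slide as a fixed block, which rests on 2 mice per group, called 4, 0 and 0 at days 9, 25 and 30 and was not run at day 4 or for the F tests. As a random block it left 6 that differed between days and 18 between control days. The cause of these shifts was not tested.

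Leaving out 1 array at a time gave 12 to 20, 10 to 17, 14 to 20, 14 to 19 and 19 to 29 calls (10 without 90Sr day 7 replicate 6) and medians of -0.34 to -0.20, -0.29 to -0.20, -0.35 to -0.18, -0.22 to -0.13 and -0.17 to 0.02, with 12 to 20 members differing between days and 33 to 42 between control days. Deviations of same-numbered mice correlated at -0.28 to 0.32 over the 5 days, and the numbers were not taken to pair the mice. At day 4 each of the 4 control mice correlated best with the 90Sr mouse of its own number (0.073 to 0.27), with 1 of the 4 under 0.1. With the replicate number as a block 15, 18, 15, 16 and 24 were called, and 11 differed between days and 40 between control days. Arrays carry no read depth, and a probe near background limits what can be seen: 14 members did not pass the filter on spot quality and background.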
